A study of Homo sapiens with 14 samples.

Results

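Notch receptors, ligands and cofactors were followed as 10 genes of the 57820 genes in the deposited tables. They were taken by gene name: the receptors NOTCH1, NOTCH2 and NOTCH3, the ligands JAG1, JAG2, DLL1 and DLL3, the coactivator MAML1, the DNA-binding factor RBPJ and the Notch inhibitor NUMB. In all, 11 gene identifiers carry these names, because a short noncoding transcript inside JAG1 has the same name. That transcript held 0 to 7 fragments per library and the protein-coding JAG1 was used.

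Notch is a cell surface receptor that is activated by ligands of the Jagged and Delta-like families on a neighbouring cell. Ligand pulling exposes the receptor to the protease ADAM10 and then to gamma-secretase, which releases the intracellular domain. That domain enters the nucleus, joins RBPJ and a Mastermind protein such as MAML1, and switches on genes of the HES and HEY families and NRARP, which in turn limits the signal. NUMB drives the receptor into endocytosis and lowers signaling.

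The libraries were made from mRNA of HEK293T, an immortalized cell line from human embryonic kidney. In the conversion experiment, RNA came from unlabeled cells (Con-RNA), from cells given 4-thiouridine (s4U, a uridine analog built into new RNA) for 24 h (s4U-RNA), and from both after treatment of the isolated RNA with acrylonitrile (Con-acrylonitrile-RNA and s4U-acrylonitrile-RNA), with 2 libraries each. Acrylonitrile adds a cyanoethyl group to s4U, which is then read as C, so that fragments with T-to-C mismatches mark RNA made in the presence of s4U. In the PDP experiment, cells received 0, 4 or 8 µM PDP, a pyridostatin analog that binds and stabilises G-quadruplexes, for 20 min and then 500 µM s4U for 1 h, and all 6 RNAs were treated with acrylonitrile (PDP-0-RNA, PDP-4-RNA and PDP-8-RNA, 2 libraries each). For the 24 h labeling the study's methods give 50 µM s4U, while the labels give 50 µM for s4U-RNA and 500 µM for s4U-acrylonitrile-RNA, so the dose of the latter is uncertain. The study also reports slower growth of cells during the long labeling. No source describes the replicates as separate cultures, and p-values here reflect only the spread among these libraries, which may be technical.

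The libraries held 6074118 to 22363992 fragments. The PDP-0-RNA libraries were shallower (9770956 and 10564894) than the 4 libraries with PDP (18373693 to 22363992), and 82.6% and 83.0% of their fragments lay in genes against 86.5% to 89.7% with PDP. The replicates of s4U-RNA stood far apart, with a chi-square per degree of freedom of 58.2 over genes against 1.07 for Con-RNA. All 6 HEK293 markers found were detected. In the PDP libraries, the lymphocyte, red cell and endothelial markers were at 0 to 0.224 FPM (fragments per 1000000 fragments of the library). COL1A1, a fibroblast marker, was at 50.6 to 56.6 there, while the fibroblast marker COL1A2 was at 0. Of the markers of MCF7, a breast cancer line that the study also used, GATA3 was at 55.2 to 72.0 and GREB1 at 30.8 to 41.3. ESR1, TFF1, KRT19 and PGR, also MCF7 markers, were at 0 to 0.490.

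All 10 members were detected in every library. In PDP-0-RNA, where levels are compared as fragments per kilobase of transcript per 1000000 fragments (FPKM), the ligand JAG2 was highest with a mean of 62.8, followed by MAML1 (42.0), NOTCH1 (33.2), NOTCH3 (25.9) and NOTCH2 (14.5). DLL1 (5.46), NUMB (5.34) and DLL3 (4.73) came next, and RBPJ (2.23) and JAG1 (0.655) were lowest. The libraries of DLL1 and NUMB, and those of NUMB and DLL3, overlapped, and all other neighbours in this order were separate. The median protein-coding gene was at 1.83 FPKM.

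The order was different in untreated Con-RNA, which had seen neither s4U nor acrylonitrile. JAG2 was again highest at 52.8 FPKM, and NOTCH3 (27.3), NOTCH2 (26.4), NUMB (25.5), MAML1 (24.6), RBPJ (19.6) and NOTCH1 (16.0) followed. DLL1 (9.15), DLL3 (3.90) and JAG1 (2.45) were lowest, no neighbours overlapped, and the median protein-coding gene was at 5.38 FPKM. The 2 experiments differ in acrylonitrile treatment and labeling, whose effects on the members are given further on.

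PDP binds G-quadruplexes, stacked structures of guanine-rich sequence, and the members differ widely in the motifs for them. A motif was counted as 4 or more runs of at least 3 G with loops of 1 to 7 bases. Motifs on either strand within 2000 bp of the annotated gene start were taken. Successive matches that do not overlap on a strand were counted separately, so 1 long G-rich stretch can give more than 1 motif. NOTCH3 held 15 motifs (10 on the coding strand), JAG2 13 (9), NOTCH1 9 (3), DLL1 8 (6), JAG1 5 (3) and DLL3 3 (0). NOTCH2 held 2 (1), MAML1 2 (0), and RBPJ and NUMB held 0. Over all 20345 protein-coding genes the median was 2 motifs (interquartile range 0 to 4) and 72.2% had at least 1, against 8 of the 10 members. With loops of up to 12 bases, 85.0% of genes and 9 members had a motif, and RBPJ had 0. A match in sequence is not a measured structure, and motifs outside this window were counted only over the whole gene, where RBPJ held 31 and NUMB 14.

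Below, 1 motif each is shown for NOTCH1, NOTCH3, JAG2, DLL1, NOTCH2 and MAML1. They were read from GRCh37, 5′ to 3′ on the strand that carries the motif, with the runs of G in capitals. Those of NOTCH1, NOTCH3, JAG2, DLL1 and NOTCH2 are the nearest upstream of the transcript used for annotation. MAML1 has none upstream, and the motif shown lies in coding sequence of exon 1. Another MAML1 motif, at 229 bp in untranslated sequence of exon 1, is not shown. JAG1 and DLL3 also have upstream motifs, the nearest at -119 bp and -33 bp, which are not shown.
NOTCH1, chr9:139440527-139440561, minus strand, coding strand of the gene, at -230 bp: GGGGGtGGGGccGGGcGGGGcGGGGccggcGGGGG
NOTCH3, chr19:15311866-15311890, minus strand, coding strand of the gene, at -86 bp: GGGcGGGGGGcGGGGGcgcgctGGG
JAG2, chr14:105635180-105635207, plus strand, template strand of the gene, at -32 bp: GGGGtGGGGccGGGGGGGGGtccGGGGG
DLL1, chr6:170600185-170600219, minus strand, coding strand of the gene, at -641 bp: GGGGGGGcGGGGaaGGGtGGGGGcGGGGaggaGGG
NOTCH2, chr1:120612524-120612549, plus strand, template strand of the gene, at -296 bp: GGGGcgtGGGGGtgaGGGGGGtGGGG
MAML1, chr5:179160358-179160382, minus strand, template strand of the gene, at 519 bp: GGGGccGGGGcggcGGGcgccGGGG
The distances run from the gene start to the middle of the motif and are negative upstream.

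Where the motifs lie also differs between these genes. Of the 15 motifs of NOTCH3, 5 were upstream of the transcript, 1 was in an untranslated exon and 9 were in introns. JAG2 had 3 upstream, 4 in untranslated exon sequence, 1 in coding sequence and 5 in introns, and NOTCH1 had 5, 1, 0 and 3 in the same order. DLL1 had 5 upstream, 1 in an untranslated exon and 2 in introns. Transcripts of NOTCH1 (63.5% GC), NOTCH3 (63.1%), JAG2 (64.1%) and DLL1 (59.5%) were also rich in G and C, against 49.1% for the median protein-coding gene. GC content did not follow the motifs in every member. DLL3, with 3 motifs, had the highest GC content at 67.4%, and JAG1, with 5 motifs, was at 49.6%. MAML1 was at 55.5%, NOTCH2 at 49.4%, NUMB at 46.3% and RBPJ at 37.2%.

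After PDP and 1 h of s4U, labeled RNA of the receptors NOTCH1 and NOTCH3, the ligand JAG2 and the coactivator MAML1 was lower at both doses. Labeled RNA of RBPJ was higher, and DLL3 and NUMB did not pass the test in either direction. Labeled RNA is given as fragments with a T-to-C mismatch per 1000000 fragments of the library (labeled FPM), and groups were compared by the quasi-likelihood test of edgeR, with p-values adjusted by Benjamini-Hochberg over 14124 genes. At 8 against 0 µM PDP, 5 members were lower and 1 was higher, where 27.5% of all tested genes were lower and 10.3% higher. With TMM normalization, which moved the median of all genes from -0.11 to 0.04, 4 members were lower and 3 higher, beside 20.1% and 17.1% of all genes. NOTCH2 (0.38, edgeR adjusted p = 0.0029) and JAG1 (0.99, edgeR adjusted p = 0.033) then passed as higher and DLL1 (-0.26, edgeR adjusted p = 0.15) did not pass. At 4 against 0 µM, 4 members were lower and 2 higher, beside 19.9% and 9.24% of all genes. In bulk RNA, a lower level in each cell and fewer cells with the transcript cannot be told apart.

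**Figure D1:**
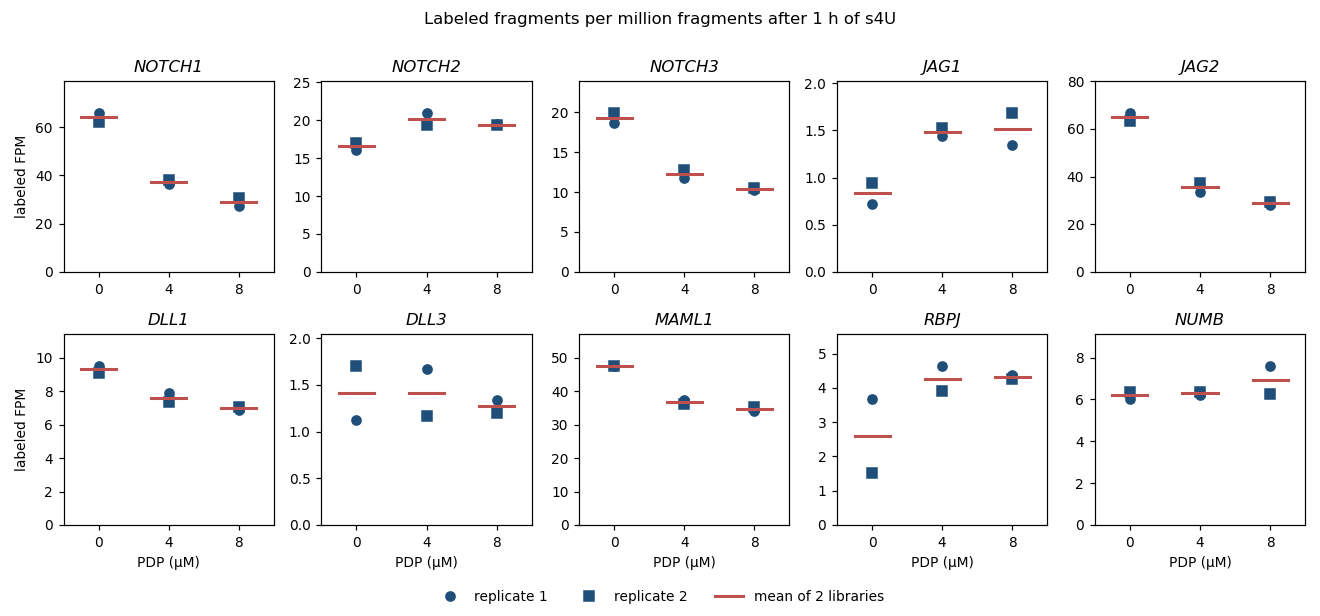
Labeled fragments per 1000000 fragments of the library (y axis, from 0 in each panel) of the 10 members at 0, 4 and 8 µM PDP (x axis). Symbols are single libraries and lines are means of 2 libraries. NOTCH1 goes from 66.0 and 62.2 without PDP to 27.3 and 30.7 at 8 µM, and JAG2 from 66.8 and 63.2 to 28.3 and 29.2.

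NOTCH1, on chromosome 9 from 139388896 to 139440314 (minus strand), encodes a receptor with broad roles in cell fate decisions. Its labeled FPM was 66.0 and 62.2 without PDP, 36.5 and 38.2 at 4 µM and 27.3 and 30.7 at 8 µM. The 3 doses did not overlap. The fall was 1.15 on the log2 scale at 8 µM (a log2 fold change of -1.15, SE 0.080, edgeR adjusted p = 7.9e-35), and 2.16% of all tested genes had a lower value. At 4 µM the log2 fold change was -0.78 (SE 0.077, edgeR adjusted p = 3.5e-19).

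JAG2, on chromosome 14 from 105607318 to 105635161 (minus strand), encodes a Jagged ligand and was the most abundant member. Its labeled FPM was 66.8 and 63.2 without PDP, 33.7 and 37.2 at 4 µM and 28.3 and 29.2 at 8 µM, again with no overlap between doses. The log2 fold change was -1.18 (SE 0.080, edgeR adjusted p = 2.7e-36) at 8 µM and -0.87 (SE 0.077, edgeR adjusted p = 4.2e-23) at 4 µM. A noncoding gene on the same strand, RP11-44N21.4, overlaps JAG2 and held 1262 to 2767 fragments per PDP library against 3506 to 7896 of JAG2, and the sources used here do not say how the counting divided reads between them.

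NOTCH3, on chromosome 19 from 15270444 to 15311792 (minus strand), is the receptor best known from smooth muscle of arteries. Its labeled FPM was 18.6 and 20.0, then 11.8 and 12.8, then 10.3 and 10.5 at 0, 4 and 8 µM, so that the doses were separate. The log2 fold change at 8 µM was -0.89 (SE 0.12, edgeR adjusted p = 2.0e-11) and at 4 µM it was -0.65 (SE 0.12, edgeR adjusted p = 7.5e-07).

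MAML1, on chromosome 5 from 179159851 to 179223512 (plus strand), recruits histone acetyltransferases to the Notch complex. Its labeled FPM was 47.5 and 47.6 without PDP, 37.5 and 36.1 at 4 µM and 34.2 and 35.2 at 8 µM. The log2 fold change was -0.46 (SE 0.082, edgeR adjusted p = 4.0e-07) at 8 µM and -0.37 (SE 0.080, edgeR adjusted p = 6.3e-05) at 4 µM. DLL1, the Delta-like ligand on chromosome 6 from 170591294 to 170599561 (minus strand), was at 9.52 and 9.09, then 7.89 and 7.35, then 6.89 and 7.08. Its libraries were separate between doses, its log2 fold change at 8 µM was -0.41 (SE 0.16, edgeR adjusted p = 0.025), and at 4 µM it was -0.29 (edgeR adjusted p = 0.15). The call for DLL1 at 8 µM was lost when any of the 4 libraries was left out, with log2 fold changes of -0.45 to -0.38.

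RBPJ, on chromosome 4 from 26165077 to 26436541 (plus strand), represses target genes without Notch and activates them with it. Its labeled FPM was 3.68 and 1.51 without PDP, 4.64 and 3.90 at 4 µM and 4.38 and 4.25 at 8 µM. Both doses lay above both libraries without PDP, and the log2 fold change was 0.75 (SE 0.24, edgeR adjusted p = 0.0072) at 8 µM and 0.74 (SE 0.24, edgeR adjusted p = 0.011) at 4 µM. The libraries without PDP differed widely, with 36 of 125 RBPJ fragments labeled in one and 16 of 119 in the other. Without the second PDP-0-RNA library the log2 fold change was 0.23 at 8 µM and 0.21 at 4 µM and neither passed. Without the first PDP-4-RNA library the value at 4 µM was 0.60, which did not pass either.

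NOTCH2, on chromosome 1 from 120454176 to 120612240 (minus strand), was at 16.1 and 17.0, then 21.0 and 19.4, then 19.5 and 19.3 labeled FPM. Both doses lay above the libraries without PDP, and its log2 fold change was 0.29 (SE 0.11, edgeR adjusted p = 0.034) at 4 µM and 0.23 (SE 0.11, edgeR adjusted p = 0.088) at 8 µM. The call for NOTCH2 at 4 µM was lost without either PDP-0-RNA library (0.25 and 0.33) and without the first PDP-4-RNA library (0.23). Its near copy NOTCH2NL held 169 to 677 fragments per PDP library against 1584 to 5241 of NOTCH2, so reads may be divided between them. JAG1, a ligand on chromosome 20 from 10618332 to 10654694 (minus strand), was at 0.716 and 0.947, then 1.44 and 1.52, then 1.34 and 1.69. The JAG1 doses did not overlap with 0 µM, and the log2 fold change of 0.84 (SE 0.39, edgeR adjusted p = 0.080) at 8 µM rests on few fragments.

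DLL3, a Delta-like protein that acts inside the cell, lies on chromosome 19 from 39989535 to 39999121 (plus strand). Its labeled FPM was 1.13 and 1.70 without PDP and 1.34 and 1.197 at 8 µM, so the groups overlapped, with a log2 fold change of -0.16 (SE 0.35, edgeR adjusted p = 0.76). NUMB, on chromosome 14 from 73741815 to 73930348 (minus strand), was at 6.04 and 6.34 without PDP and 7.60 and 6.26 at 8 µM, also with overlap (log2 fold change 0.17, SE 0.17, edgeR adjusted p = 0.47). Across the 10 members, the labeled FPM of 8 did not overlap with 0 µM at either dose, and the same held for 54.0% of all tested genes (67.7% at 8 µM and 64.0% at 4 µM).

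Between 4 and 8 µM, only 2 members passed, beside 4.92% of all genes that were lower and 0.701% that were higher. NOTCH1 was lower at 8 µM by a log2 fold change of -0.37 (SE 0.078, edgeR adjusted p = 0.00050), and JAG2 by -0.30 (SE 0.078, edgeR adjusted p = 0.0058). Both calls were lost with TMM normalization, with the GC content term and with DESeq2, and that of JAG2 also without the second PDP-4-RNA library (-0.23).

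The change of labeled RNA moved with GC content across all genes, with a Spearman correlation of -0.53 over 13693 genes at 8 against 0 µM. When a smooth function of transcript GC content was fitted for each library, which was added after seeing the data, the log2 fold change at 8 µM was -0.64 for NOTCH1, -0.65 for JAG2, -0.40 for NOTCH3 and -0.32 for MAML1, and these 4 still passed. DLL1 moved to -0.07 and RBPJ to 0.43, and neither passed. At 4 µM, NOTCH3 did not pass with this term (-0.26, edgeR adjusted p = 0.11) or with this term and TMM (-0.20, edgeR adjusted p = 0.19). With the GC content term and TMM together at 8 µM, NOTCH1 was at -0.49, JAG2 at -0.50 and NOTCH2 at 0.28, and these 3 passed, while NOTCH3 was at -0.25 and MAML1 at -0.17 and did not. NOTCH1 and JAG2 passed under 13 of 13 alternatives at 8 against 0 µM. The parts of GC content and of PDP in the change cannot be told apart for a gene that is rich in both G-quadruplex motifs and GC.

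**Figure D2:**
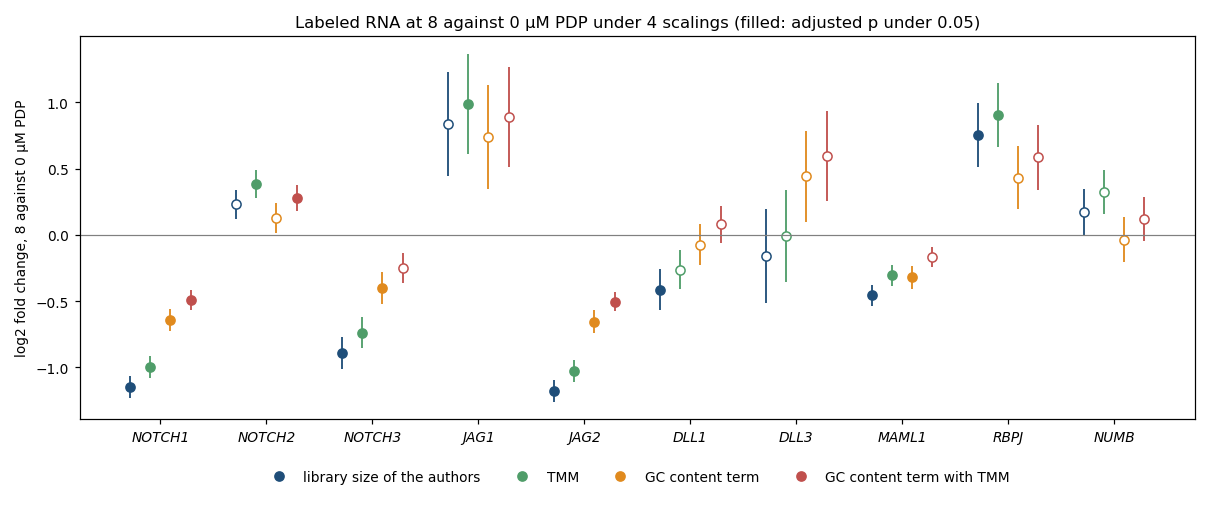
Log2 fold change of labeled RNA at 8 against 0 µM PDP (y axis) for each member under 4 ways of scaling the libraries. Points are estimates, lines are 1 standard error on each side, and filled points have an adjusted p under 0.05. NOTCH1 and JAG2 are filled under all 4 scalings, at -1.15 and -1.18 with the authors' library sizes and at -0.49 and -0.50 with the GC content term and TMM.

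Genes with more motifs near the start had lower labeled RNA at 8 µM. The median log2 fold change was 0.09 for the 2409 tested coding genes with 0 motifs, -0.05 for 4478 genes with 1 to 2, -0.21 for 3514 genes with 3 to 5, -0.41 for 1535 genes with 6 to 9 and -0.58 for 430 genes with 10 or more. The share of genes that passed as lower was 15.0%, 23.0%, 34.3%, 47.2% and 62.8% in the same order. NOTCH3 and JAG2 belong to the last of these bins, NOTCH1 and DLL1 to the one before, and RBPJ and NUMB to the first. The median GC content of the transcripts rose along these bins too, from 44.2% to 61.1%, and its part in the order was not tested. Among the members, JAG1 with 5 motifs had a positive log2 fold change (0.84) and MAML1 with 2 motifs a negative one (-0.46).

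The rule the study used for lowered transcripts asks for 1.5-fold lower labeled FPKM in both replicates and at both doses. It held for NOTCH1, NOTCH3 and JAG2 among the 7 members with at least 1 labeled FPKM without PDP, and for 657 of 6756 such protein-coding genes (9.72%). The ratio of labeled FPKM at 8 to that at 0 µM was 0.413 and 0.494 for NOTCH1, 0.423 and 0.462 for JAG2 and 0.555 and 0.526 for NOTCH3. At a fold of 1.2 the rule also held for DLL1 and MAML1, where the share of all such genes was 32.9%, and at 8 µM alone it held for 3 members and 22.2% of these genes.

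Total RNA changed differently. At 8 against 0 µM PDP, NOTCH2, JAG1, DLL1, RBPJ and NUMB were higher and NOTCH3 and JAG2 were lower, beside 51.8% of 15473 genes that were higher and 8.71% that were lower. The median of all genes was itself shifted by 0.33 on the log2 scale, so a member near that value moved with the bulk of genes, and TMM normalization brought this median to 0.02, with 26.8% of genes higher and 27.0% lower. The share of fragments in genes also differed between the groups (82.6% and 83.0% against 86.5% to 89.7%), and its part in the shift was not tested.

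Total NOTCH1 was at 320 and 314 FPM without PDP, 320 and 312 at 4 µM and 304 and 321 at 8 µM, so the groups overlapped (log2 fold change at 8 µM -0.02, edgeR adjusted p = 0.69). Total JAG2 was at 359 and 366 without PDP and 344 and 316 at 8 µM (log2 fold change -0.14, edgeR adjusted p = 0.017), a call that was lost without either PDP-0-RNA library (-0.15 and -0.12) or the second PDP-8-RNA library (-0.077). Total NOTCH3 was at 219 and 231 without PDP and 198 and 196 at 8 µM (log2 fold change -0.19, edgeR adjusted p = 0.0017), and the call was lost without the second PDP-0-RNA library (-0.15). The size and sign of these total changes depend on the scaling. With TMM, total NOTCH1 was at -0.33, NOTCH3 at -0.50 and JAG2 at -0.44, and all 3 passed as lower. With the GC content term they were at 0.40, 0.21 and 0.30, and all 3 passed as higher.

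Among the members with more total RNA, RBPJ rose from 12.8 and 11.3 to 23.4 and 23.9 FPM (log2 fold change 0.98, edgeR adjusted p = 1.7e-08) and NUMB from 20.8 and 17.7 to 35.5 and 31.4 (log2 fold change 0.81, edgeR adjusted p = 6.7e-08). These groups did not overlap. RBPJ and NUMB stayed higher under 13 of 13 alternatives. JAG1 went from 3.99 and 3.79 to 5.99 and 7.78 FPM, NOTCH2 from 162 and 169 to 228 and 222, and DLL1 from 21.8 and 19.5 to 25.9 and 30.3. For these 3 genes the log2 fold changes were 0.81, 0.44 and 0.44, and none was called with DESeq2, which scales to the typical gene. MAML1 was at 243 and 239 FPM without PDP and at 255 in both libraries at 8 µM (log2 fold change 0.08, edgeR adjusted p = 0.15), and its sign was negative with TMM (-0.22). At 4 µM, the same 5 members were higher and NOTCH3 was lower, beside 51.4% and 6.99% of all genes. Without the second PDP-0-RNA library, DLL1 (0.32) and NOTCH3 (-0.11) did not pass at 4 µM, and NOTCH3 did not without the second PDP-4-RNA library (-0.14). With TMM at 8 µM, 4 members were higher and 4 lower, beside 26.8% and 27.0% of all genes. With the GC content term 10 were higher and 0 lower, beside 60.5% and 4.77% of all genes. With both, 3 were higher and 0 lower, beside 20.7% and 18.3%. The signs of NOTCH1, NOTCH3, JAG2 and DLL3 in total RNA were thus positive with the GC content term and negative with the authors' library sizes.

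The labeled share, which is the percent of a gene's fragments with a T-to-C mismatch, does not depend on the library size. Over all genes of a library it was 17.2% in both PDP-0-RNA libraries, 13.8% and 13.5% at 4 µM and 12.5% and 13.2% at 8 µM. NOTCH1 went from 20.6% and 19.8% to 11.4% and 12.3% and then to 8.98% and 9.58%, with no overlap between doses. JAG2 went from 18.6% and 17.3% to 9.92% and 10.5% and then to 8.22% and 9.25%. DLL1, with the highest share of the members, went from 43.7% and 46.6% to 28.2% and 27.6% and then to 26.6% and 23.4%. For these 3 genes, and also for NOTCH3, MAML1 and NOTCH2, the labeled share was separate between every pair of doses. Between 8 and 0 µM the same held for 77.2% of all tested genes, and the share of all genes separate between every pair was not counted. RBPJ was at 28.8% and 13.4% without PDP and at 18.7% and 17.8% at 8 µM, and its groups overlapped. JAG1 had 7 of 39 and 10 of 40 fragments labeled without PDP and 30 of 134 and 31 of 143 at 8 µM, also with overlapping shares.

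When labeled counts were tested against the unlabeled counts of a library, 6 members had a lower labeled fraction at 8 than at 0 µM and 0 a higher one, beside 54.0% of all genes that were lower and 0.637% that were higher. The log2 fold changes of labeled over unlabeled RNA were -1.31 for NOTCH1, -1.30 for DLL1, -1.199 for JAG2, -0.87 for NUMB, -0.75 for NOTCH3 and -0.65 for MAML1, and the median over all genes was -0.58. The labeled shares at 8 and 0 µM did not overlap for 7 members, these 6 and NOTCH2, nor for 77.2% of all tested genes. With TMM of the labeled and unlabeled counts, NOTCH1 (-0.79), JAG2 (-0.67) and DLL1 (-0.78) remained lower and NOTCH2 passed as higher at 0.29. This measure moved little with GC content across genes (Spearman correlation -0.080).

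The share of fragments with a mismatch in acrylonitrile-treated RNA that never saw s4U sets a floor for these values, although it was measured in the other experiment. It was 6.18% for NOTCH1, 7.48% for JAG2, 6.12% for DLL1, 6.26% for MAML1, 7.53% for NUMB, 6.97% for RBPJ and 7.22% for JAG1. These values were below the share of the gene in every PDP library. For JAG2 the margin was small at 8 µM, with shares of 8.22% and 9.25%, after 18.6% and 17.3% without PDP. The Wilson interval of its first Con-acrylonitrile-RNA library (6.98% to 8.73%) overlapped those of both PDP-8-RNA libraries (7.63% to 8.86% and 8.53% to 10.0%). Most of the labeled JAG2 fragments at 8 µM may therefore be background mismatches. For NOTCH3 the floor was 5.50% and its shares of 5.22% and 5.36% at 8 µM were at that floor, after 8.51% and 8.64% without PDP. NOTCH2 had a floor of 9.12% and shares of 8.59% to 10.1% at all doses, and DLL3 had a floor of 14.5% and shares of 12.4% to 17.3%. The labeled FPM of NOTCH2 and DLL3 therefore cannot be told apart from background mismatches at any dose.

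**Figure D3:**
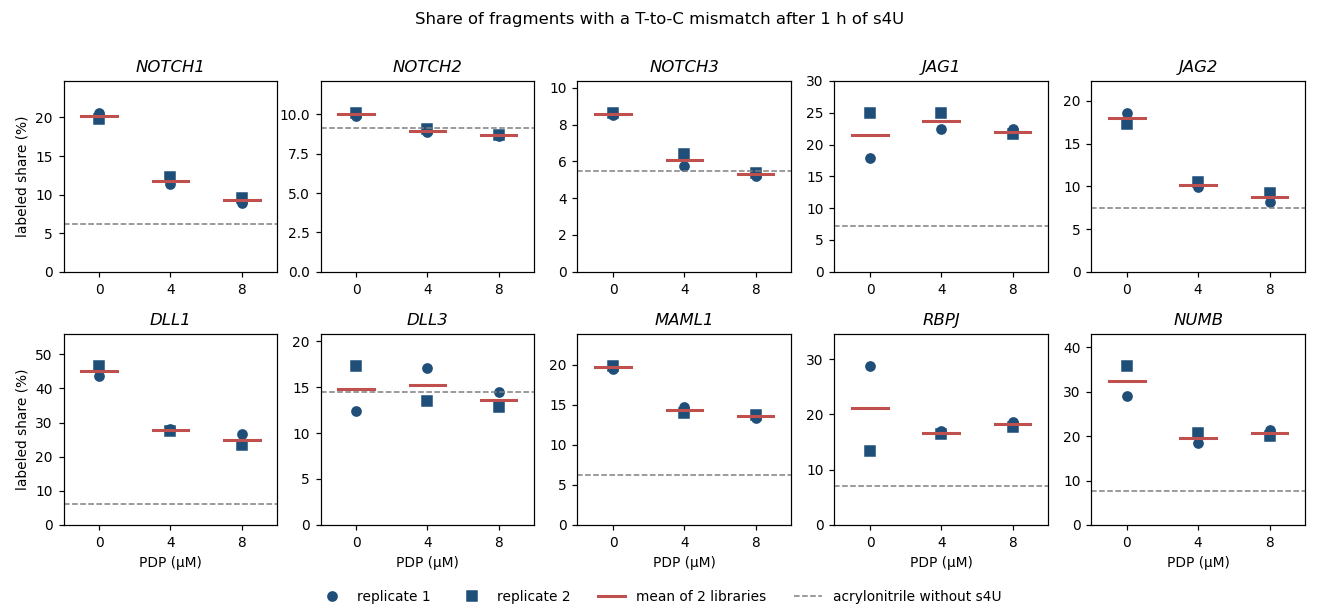
Percent of each member's fragments with a T-to-C mismatch (y axis, from 0) after 1 h of s4U at 0, 4 and 8 µM PDP (x axis). Symbols are single libraries, lines are means of 2 libraries, and the dashed line is the share of the same gene in acrylonitrile-treated RNA without s4U. NOTCH1 falls from 20.6% and 19.8% to 8.98% and 9.58%, and NOTCH2 lies near its dashed line of 9.12% at every dose.

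The study also looked for transcription past the annotated gene end in the PDP libraries, in a window of 4000 bp downstream. The members gave few fragments there, and only MAML1 could be tested. MAML1 held 6 and 11 fragments without PDP, 14 and 20 at 4 µM and 7 and 9 at 8 µM, in libraries of unequal depth. Its log2 fold change at 8 µM was -1.07 (SE 0.53, edgeR adjusted p = 0.10), where 22.8% of 1405 genes tested were lower and 12.5% higher.

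Half-lives were computed from the labeled shares of the PDP-0-RNA libraries with the formula of the study, which takes the labeled share after 60 min as the part of the RNA that was replaced. DLL1 had the shortest half-life of the members, 1.21 and 1.10 h in the 2 libraries (1.16 h ± 0.073, SD, n = 2), and 6.59% of the 12811 genes measured were shorter. NUMB was next with 2.02 and 1.56 h. The receptor NOTCH1 had 3.00 and 3.14 h, JAG2 3.36 and 3.65 h and MAML1 3.19 and 3.13 h, close to the median of all genes of 3.17 h (interquartile range 2.04 to 4.71). The study itself reports a longer median half-life for mRNAs of these cells, and the reason for the difference was not tested. NOTCH2 had 6.64 and 6.51 h and NOTCH3 7.79 and 7.67 h. The values of RBPJ (2.04 and 4.80 h), JAG1 (3.50 and 2.41 h) and DLL3 (5.25 and 3.65 h) differed between the libraries by more than 1 h each.

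Subtracting the background share lengthened the half-lives unequally. With the mismatch share of the same gene without s4U subtracted, DLL1 was at 1.29 h, NUMB at 2.26 h, NOTCH1 at 4.29 h, JAG1 at 4.45 h, MAML1 at 4.48 h, JAG2 at 5.79 h and RBPJ at 6.10 h on average. NOTCH3 moved to 21.0 h and NOTCH2 to 71.3 h, and DLL3 gave no value in one library because its share was below the background. With the background over all genes of 7.63% subtracted, DLL1 was at 1.33 h, NOTCH2 at 26.6 h and NOTCH3 at 67.4 h. DLL1 remained the shortest under each choice, and the long half-lives of NOTCH2 and NOTCH3 depend on the background chosen.

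**Figure D4:**
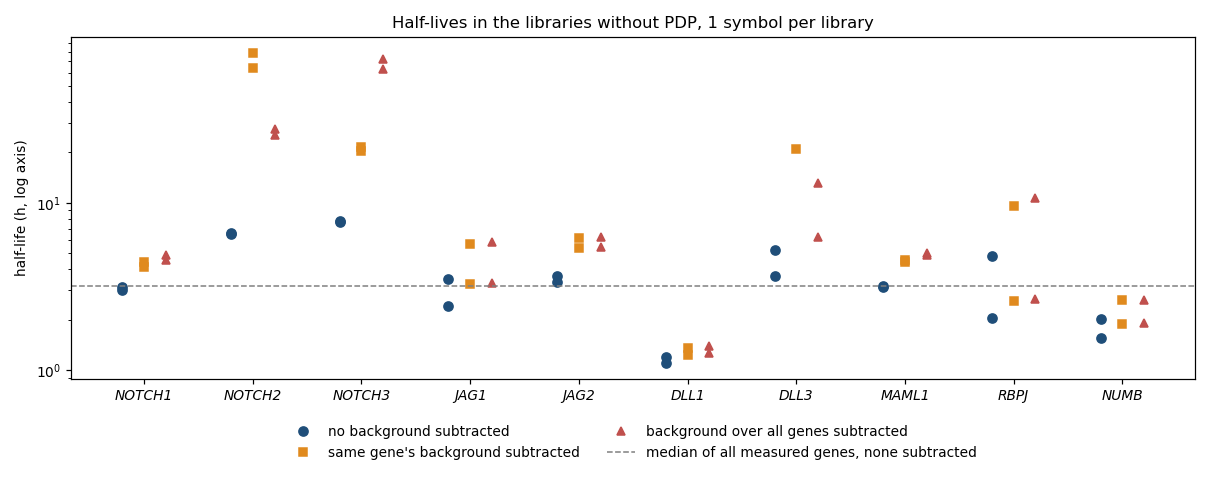
Half-lives in hours (y axis, log scale) of the members in the 2 libraries without PDP, with no background subtracted, with the same gene's background subtracted and with the background over all genes subtracted. Each symbol is 1 library, and a dashed line marks 3.17 h, the median over 12811 genes with no background subtracted. DLL1 lies at 1.10 to 1.21 h with no background subtracted, and NOTCH2 and NOTCH3 shift most between the choices.

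After 24 h of s4U, nearly all fragments of the members carried a mismatch in acrylonitrile-treated RNA. The share was 89.9% ± 0.97 (SD, n = 2) for NOTCH1, 92.8% ± 1.7 for NOTCH2, 88.2% ± 1.1 for NOTCH3, 91.0% ± 0.43 for JAG2, 90.7% ± 0.26 for DLL1, 90.6% ± 5.4 for DLL3, 89.9% ± 1.1 for MAML1, 94.8% ± 4.8 for RBPJ and 95.2% ± 0.19 for NUMB. JAG1 was at 82.5% ± 11, from only 12 and 10 fragments. The 6 control libraries of the members, from Con-RNA, s4U-RNA and Con-acrylonitrile-RNA, were at 4.00% to 18.4%. Labeled and control libraries were thus separate for each member. An exact two-sided permutation test that pooled these controls gave p = 0.0357 for each, the smallest p that 2 against 6 libraries allow. This p says only that the libraries were separate. The median of 12068 protein-coding genes with at least 20 fragments per library was 91.4% (interquartile range 85.3% to 94.3%). Of the members' mean shares, only those of JAG1, RBPJ and NUMB lie outside that range.

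The conversion experiment also gives the levels of the members after 24 h of s4U. Between unlabeled and labeled cells, with no acrylonitrile in either, all 3 receptors and all 4 ligands were lower, while MAML1, RBPJ and NUMB did not pass the test. These are 7 lower and 0 higher members, beside 34.7% of 18914 genes that were lower and 35.8% that were higher. The test was edgeR's quasi-likelihood test with TMM normalization over the 8 libraries, and levels are fragments per 1000000 fragments in genes.

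**Figure D5:**
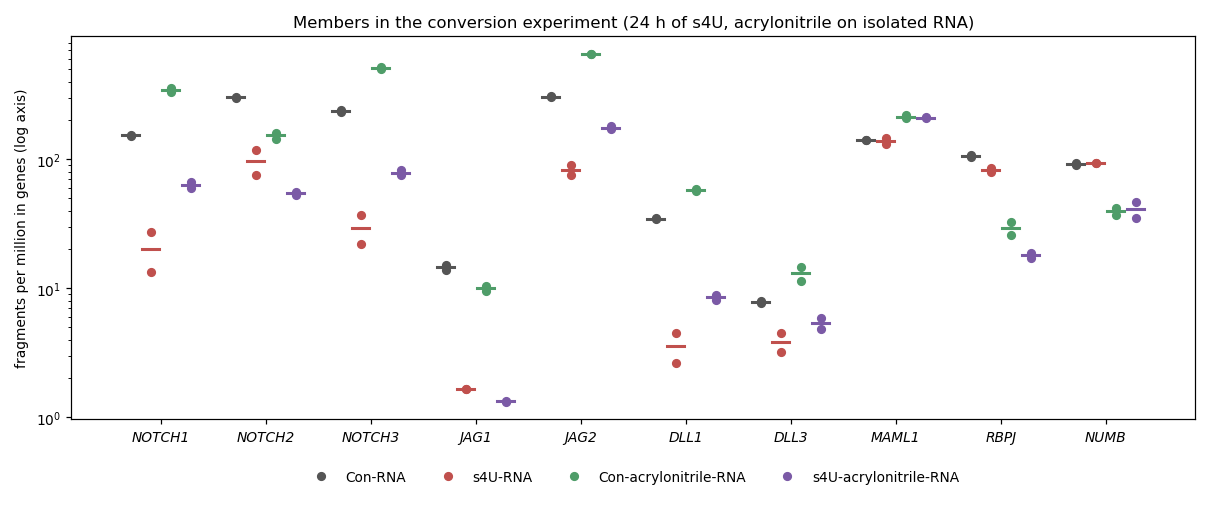
Level of each member in fragments per 1000000 fragments in genes (y axis, log scale) in the 4 groups of the conversion experiment. Points are single libraries and lines are means of 2 libraries. NOTCH1 is at 154 and 153 in Con-RNA, at 13.3 and 27.2 in s4U-RNA, at 331 and 354 in Con-acrylonitrile-RNA and at 59.5 and 66.1 in s4U-acrylonitrile-RNA.

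NOTCH1 went from 154 and 153 in Con-RNA to 13.3 and 27.2 in s4U-RNA (log2 fold change -2.65). NOTCH3 went from 234 and 240 to 21.8 and 36.9 (-2.74), and NOTCH2 from 301 in both libraries to 74.9 and 119 (-1.36). All 3 receptors were thus below every unlabeled library. Among the ligands, DLL1 went from 34.3 and 34.9 to 2.63 and 4.47 (-2.99), JAG1 from 13.8 and 15.3 to 1.65 and 1.64 (-2.85) and JAG2 from 308 and 302 to 75.7 and 89.8 (-1.60). DLL3 went from 8.00 and 7.63 to 4.50 and 3.22 (-0.73), with the opposite sign (0.19) under the GC content term.

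The intracellular cofactors stayed closer to their level. MAML1 was at 141 and 142 in Con-RNA and at 131 and 147 in s4U-RNA, NUMB at 89.7 and 94.3 and at 92.9 and 94.0, and RBPJ at 103 and 108 and at 80.2 and 85.8. The fitted log2 fold changes were 0.26, 0.31 and -0.06, with no call. With the GC content term, MAML1 passed as higher (0.34) and RBPJ as lower (-0.44). The same comparison in acrylonitrile-treated RNA was added after seeing the data. It uses other libraries, which by the labels had 500 µM s4U instead of 50 µM. It had 8 members lower and 0 higher, beside 31.1% and 33.2% of all genes. The log2 fold change there was -2.19 for NOTCH1, -1.23 for NOTCH2, -2.45 for NOTCH3, -2.64 for JAG1, -1.64 for JAG2, -2.50 for DLL1, -1.01 for DLL3 and -0.44 for RBPJ.

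The calls for the 3 receptors and for JAG1, JAG2 and DLL1 were kept under 10 of 10 alternatives in both comparisons, which include leaving out each of the s4U-RNA libraries that stood apart. DLL3 was kept under 4 of 10 and 7 of 10, and its call without acrylonitrile was lost without either Con-RNA library (-0.70 and -0.77) or the second s4U-RNA library (-0.44). With acrylonitrile it was lost without the second Con-acrylonitrile-RNA library (-0.78) or the second s4U-acrylonitrile-RNA library (-0.85). The call for RBPJ with acrylonitrile was lost without the first Con-acrylonitrile-RNA library (-0.19) and without either s4U-acrylonitrile-RNA library (-0.43 and -0.34). Among the kidney line's markers found, PAX2 and NEFM fell most in s4U-RNA, PAX2 to 3.68 to 4.27 against 29.4 to 31.0 in Con-RNA. NEFM was at 18.3 to 24.5 against 119. KRT8 (45.4 to 50.1 against 78.5 to 79.3), KRT18 (39.7 to 52.5 against 59.1 to 66.1) and EMX2 were lower by a smaller factor. VIM overlapped, at 169 to 342 against 336 to 347. Whether the change of these markers has a part in the members' fall was not tested.

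The levels of the members also differed between acrylonitrile-treated and untreated RNA without s4U. NOTCH1 (log2 fold change 1.47), NOTCH3 (1.43), JAG2 (1.42), DLL1 (1.05), DLL3 (1.04) and MAML1 (0.91) were higher in the treated RNA, and NOTCH2 (-0.66), RBPJ (-1.54) and NUMB (-0.90) were lower. These were 6 higher and 3 lower members, beside 29.1% and 30.7% of all genes. NOTCH3, for example, was at 234 and 240 in Con-RNA and at 505 and 523 in Con-acrylonitrile-RNA, and RBPJ at 103 and 108 and at 32.6 and 25.7. The call for DLL3 was lost without the second Con-acrylonitrile-RNA library (0.82).

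The direction followed the GC content of the transcripts, as over all genes (Spearman correlation 0.71 over 18018 genes). The 6 members that were higher had 55.5% to 67.4% GC and the 3 that were lower 37.2% to 49.4%. With the GC content term, 1 member was higher and 3 lower, beside 15.5% and 19.6% of all genes, and DLL3 changed sign to -0.65. In RNA of s4U-labeled cells, with all fragments counted, 6 members were higher and 3 lower after acrylonitrile, beside 31.0% and 34.1% of all genes. With the GC content term 3 were higher and 3 lower, beside 20.5% and 22.4%, and the signs of JAG2 (-0.07) and DLL3 (-1.04) turned. By the labels, s4U-acrylonitrile-RNA had 500 µM s4U and s4U-RNA 50 µM. In this comparison and in the difference test below, acrylonitrile and s4U dose therefore cannot be told apart. Without the second s4U-RNA library or either s4U-acrylonitrile-RNA library, NOTCH2 (-0.54 to -0.25) and DLL3 (0.47 to 0.92) did not pass. A test of the difference between the acrylonitrile effects with and without s4U, added after seeing the data, called 0 members. Of all genes, 1.28% had a higher and 0.354% a lower effect with s4U. It was edgeR's quasi-likelihood test, with 3144 genes at an unadjusted p under 0.05. The outcome of this test depended strongly on which libraries were used, as given in the last section.

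The other genes of the pathway were taken from a list of 69 genes by role, of which 60 could be tested in labeled RNA at 8 against 0 µM PDP. Of these, 21 were lower and 6 higher, with a median log2 fold change of -0.24 against -0.11 over all genes, where 27.5% were lower and 10.3% higher. Among genes of endocytosis and turnover, 6 of 14 were lower and 1 higher, among coactivators 3 of 7 and 1, among corepressors 5 of 15 and 2, among receptor cleavage genes 1 of 8 and 0, and among the receptor-modifying glycosyltransferases 1 of 5 and 0. Of the 11 target genes tested, 5 were lower and 2 higher.

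The target genes went in opposite directions. HES1, a repressor that is the classic Notch target, had 25.7 and 24.0 labeled FPM without PDP and 52.9 and 55.3 at 8 µM (log2 fold change 1.12, edgeR adjusted p = 1.2e-29). HEY1, a related repressor, went from 69.1 and 77.6 to 79.7 and 102.8 (log2 fold change 0.31, edgeR adjusted p = 9.4e-05), a call that was lost with the GC content term. NRARP, which promotes loss of the Notch intracellular domain, went from 120 and 124 to 56.3 and 66.6 (log2 fold change -0.997, edgeR adjusted p = 4.7e-36). HES4 (-1.36) and HES6 (-1.47), from the list of target genes, were lower as well. Whether the listed genes respond to Notch in these cells was not tested. For HES1, NRARP, HES4 and HES6 the groups did not overlap and the calls held with TMM, with the GC content term and with both, at 1.04 to 1.27 for HES1 and -0.85 to -0.52 for NRARP.

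Of the other genes with the largest changes, the ubiquitin ligases MIB2 (-1.11), which activates ligands by endocytosis, and DTX2 (-1.10) were lower in labeled RNA. The Mastermind gene MAML2 (0.76) and the corepressor genes KDM5A (0.52) and TLE4 (0.48) were higher, where the call of KDM5A was lost with the GC content term, with or without TMM, and that of MAML2 with the GC content term alone. In total RNA at 8 µM, 33 of 65 genes of the list were higher and 13 lower, beside 51.8% and 8.71% of all genes, and with TMM the direction of the median turned for target genes from 0.13 to -0.18. Total HES1 went from 32.5 and 32.1 to 81.5 and 86.0 FPM (log2 fold change 1.37, edgeR adjusted p = 6.2e-16), and total NRARP from 300.3 and 301 to 224 and 267 (log2 fold change -0.29, edgeR adjusted p = 5.9e-05). The labeled fraction was lower for 39 of 60 genes and higher for 0, beside 54.0% and 0.637% of all genes, and HES1 went from 78.9% and 74.9% labeled to 65.0% and 64.3%.

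In the 24 h labeling, target genes were lower like the receptors and ligands. Without acrylonitrile, 11 of 13 target genes were lower in s4U-RNA and 0 higher, beside 34.7% and 35.8% of all genes, with a median log2 fold change of -1.51, and with the GC content term the count was the same. NRARP went from 119 and 120 to 11.7 and 15.1 (log2 fold change -2.88), HEY1 from 223 and 225 to 81.8 and 70.0 (-1.27) and HES1 from 42.3 and 38.8 to 17.3 and 13.4 (-1.11). HES2, from the list of target genes, went from 17.6 and 15.6 to 0.300 and 0.592. With acrylonitrile in both groups, 10 of 13 were lower and 1 higher, beside 31.1% and 33.2% of all genes. By contrast, the gamma-secretase subunit gene PSENEN (log2 fold change 1.47), the corepressor gene TLE3 (1.33) and the coactivator gene SNW1 (1.07) were higher. Of all 67 pathway genes tested, 32 were lower and 13 higher without acrylonitrile, and 29 and 14 with it.

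Acrylonitrile in RNA without s4U gave higher levels for 12 of 13 target genes and lower levels for 0, beside 29.1% and 30.7% of all genes. With the GC content term 9 of 13 remained higher, where 15.5% of all genes were higher. HES4 (2.62), HES6 (2.36), NRARP (2.21) and HES5 (1.98) had the largest log2 fold changes upward, and L3MBTL3 (-1.90), APH1B (-1.65), NCSTN (-1.49) and KDM5A (-1.45) downward. Of the receptor cleavage genes, 6 of 9 were lower and 1 higher.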

How the data were processed

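The authors trimmed adapters (cutadapt 1.18 per the submitters' notes), collapsed reads of identical sequence, filtered out ribosomal RNA, mapped proper pairs to GRCh37 with HISAT2 (2.1.0) and left out mismatches at polymorphisms or with base quality under 41. The deposited tables hold fragment counts per GENCODE v19 gene, by number of mismatches for the conversion experiment and as total and labeled counts for the PDP experiment. The authors also deposited FPM values, which are RPM-like values scaled to all fragments of the library. How fragments were counted, and whether strand was used, is not stated in the sources used here.

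From the counts, groups were compared with edgeR's quasi-likelihood test, all groups of an experiment sharing 1 estimate of the spread, with the authors' library sizes for the PDP data and TMM and edgeR's filter on low counts for the conversion data. PDP genes needed a mean of 1 total FPM, 0.5 labeled FPM or 0.5 FPM downstream. Calls needed an adjusted p (Benjamini-Hochberg, over all genes tested) under 0.05. FPKM used GENCODE v44 transcript lengths lifted to GRCh37. Shares of single libraries have 95% Wilson intervals for counting error. Alternatives covered normalization, filters, pseudocounts of 0.1 and 1 with limma, DESeq2, each library left out, the replicate number as a block, and a GC content term (spline of 6 degrees of freedom), which was added for the PDP data after seeing the data. The tests were checked on simulated data. The 10 members and 3 targets (HES1, HEY1 and NRARP) were named in every comparison, with up to 4 other pathway genes in each direction by size of change among those that passed with separate libraries. One gene named by this rule is not reported here. The members and lists were chosen with earlier results of these data known. Python 3.11.15, DESeq2 1.42.0, edgeR 4.0.16 and limma 3.58.1 in R 4.3.3 were used.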

Additional observations from a re-analysis of the deposited data

Results flagged for a closer look

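In windows beside the genes, which the comparisons of the members do not use, 3 signals at 8 µM PDP lay above the level without PDP. NOTCH1 had a mean of 0.253 FPM in the 4000 bp downstream window at 8 µM, from 4 and 6 fragments, against 0 in both libraries without PDP. JAG2 had 0.149 FPM downstream, from 3 and 3 fragments, against 0. DLL1 had 0.270 FPM in the upstream window, from 6 and 5 fragments, against 0.205 and 0 FPM. The libraries with PDP were deeper (18373693 to 22363992 fragments against 9770956 and 10564894), the values rest on few fragments, and none of these differences was tested.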

How the results depend on the processing

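Of the 1280 fold changes of members under alternatives, 1134 kept their direction and their side of the threshold or were called in neither fit, 94 lost the call, 34 gained it and 18 turned sign with a call in one fit or both. In labeled RNA at 8 against 0 µM, the count of genes called went from 5340 to 3144 with the GC content term and TMM, with 3 members called, and to 2894 with DESeq2. At 4 against 0 µM, it went from 4119 to 2457 with the GC content term and 2283 with the GC content term and TMM (3 members each), 2055 with DESeq2, 2630 with no filter and 2592 to 3727 with 1 library left out. At 8 against 4 µM, it went from 794 to 175 with TMM, 263 with the GC content term, 119 with both and 39 with DESeq2, with 0 members in each, to 475 with limma at a pseudocount of 0.1, 491 with no filter and 358 to 605 with 1 library left out (1 to 2 members). In total RNA, the GC content term and TMM gave 5819 genes at 8 µM and 5510 at 4 µM, with 3 members each. The GC content term called 10 members at 4 µM, where 61.2% of all genes were higher and 4.62% lower. Labeled against unlabeled RNA gave 2382 genes with TMM and 914 with DESeq2, the latter with 3 members, and the downstream window 230 genes with DESeq2. The acrylonitrile comparisons with the GC content term gave 6318 genes (4 members) without s4U and 7725 with s4U. The test of their difference went from 310 genes to 1442 with no filter and 14 to 3634 with 1 library left out (0 to 4 members).

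The signs that turned were DLL1 in labeled RNA at 8 µM (0.079 with the GC content term and TMM), NOTCH1, NOTCH3, JAG2 and DLL3 in total RNA with the GC content term (0.40, 0.21, 0.30 and 0.50 at 8 µM and 0.37, 0.21, 0.33 and 0.44 at 4 µM), and MAML1 in total RNA (-0.22 with TMM and -0.24 with DESeq2 at 8 µM, -0.22 with either at 4 µM). NOTCH2 turned in labeled against unlabeled RNA with TMM (0.29). With the GC content term, DLL3 turned with acrylonitrile (-0.65 without and -1.04 with s4U) and with s4U (0.19), and JAG2 with acrylonitrile in RNA of s4U-labeled cells (-0.068). The cause was not tested.

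The median half-life of the members went from 3.29 h to 4.48 h and 5.41 h with the background of the same gene or of all genes subtracted. The rule for lowered transcripts gave 1043 genes with means of 2 libraries, 2221 at a fold of 1.2 (5 members) and 1497 at 8 µM alone. With 1 labeled library left out of the 24 h shares, 0 members can pass, because the smallest exact permutation p is then 0.143. The replicate numbers did not pair the libraries (correlations of -0.025 to 0.077), and with a replicate block the count of labeled genes at 8 against 0 µM was 5256 with 6 members, and no count moved by over 1.5 times.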
